A study of Homo sapiens with 2 samples.

Results

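The genes described here are germline and cancer-testis genes, which are normally used mainly in the testis or in germ cells. Members were the rows of the deposited table whose symbol belongs to the MAGE, GAGE, PAGE, XAGE, SSX, CTAG, SPANX, TEX or TDRD families, together with DDX4, BRDT, GSG1, PRAME, SYCP1, SYCP2, SYCP3, DAZL, MAEL, PIWIL1 and PIWIL2. The rule reads symbols and no measured value, although it was drawn up with earlier results of these data known. It gave 134 of the 20985 genes in the table. The pattern also took in 6 genes that share letters with these families but do not belong to them (CTAGE1, CTAGE4, CTAGE5, CTAGE8, CTAGE9 and SSX2IP). They form a set of their own among the roles below but are included in the counts over all members.

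The study set a gefitinib-resistant subline, HCC827 ZDR3, against its parental line, HCC827, a human lung adenocarcinoma cell line that depends on mutant EGFR for growth. Gefitinib blocks the EGFR kinase, and resistance was raised by culture that began at 10 nM for 1 month and stepped 3-fold each month up to 1 µM. The labels speak of 3 colonies and do not say how ZDR3 relates to them, nor whether gefitinib was present when RNA was taken. Polyadenylated RNA of each line was sequenced as 1 library, with 243549866 reads on genes in the resistant library and 257192597 in the parental library. Both lines share the HCC827 background and the same protocols, and the ZDR3 cells stand for 1 derived line. With 1 library per line there was no replicate, so no test of the difference between the lines was possible and every interval below covers counting error only.

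Germline genes are held silent in most adult cells by DNA methylation of CpG-rich promoters and by repressor complexes that bind germline promoters. Many cancer-testis genes lie on the X chromosome in families of near-identical copies, and tumours, lung cancers among them, often express some of them. The MAGE proteins bind RING ubiquitin ligases, BRDT reads acetylated histones during sperm formation, and the SYCP proteins build the synaptonemal complex of meiosis. The PIWI, MAEL and DDX4 proteins and several of the TDRD proteins act in the piRNA pathway that silences transposons in germ cells.

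The promoters of 102 of the 134 members were found in RefSeq sequence (GRCh38.p14, 250 bases before to 50 bases after the annotated start). XAGE2 and XAGE2B were matched to the same promoter, as were SPANXB1 and SPANXB2, so these are counted more than once below. GSG1, which was higher in the resistant line, and TEX14, which was lower, had no promoter entry under these symbols. The 4 below are shown because 3 belong to genes that were higher in the resistant line and DDX4 had the lowest log2 ratio among the expressed members. Capitals mark CpG dinucleotides, the site of DNA methylation, and each is written 5′ to 3′ on the strand of its gene. The 300 bases of MAGEA3 and MAGEA6 were identical, so they are printed once. No methylation was measured in these samples.
BRDT, chr1:91949121-91949420, plus strand: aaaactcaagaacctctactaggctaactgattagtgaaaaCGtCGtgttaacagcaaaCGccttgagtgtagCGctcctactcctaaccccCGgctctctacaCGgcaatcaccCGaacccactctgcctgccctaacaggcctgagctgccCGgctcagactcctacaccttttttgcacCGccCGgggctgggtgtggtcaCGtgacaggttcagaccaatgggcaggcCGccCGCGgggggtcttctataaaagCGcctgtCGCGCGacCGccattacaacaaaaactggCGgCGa
MAGEA3, chrX:152698544-152698843, plus strand (MAGEA6 is at chrX:152769640-152769939, minus strand): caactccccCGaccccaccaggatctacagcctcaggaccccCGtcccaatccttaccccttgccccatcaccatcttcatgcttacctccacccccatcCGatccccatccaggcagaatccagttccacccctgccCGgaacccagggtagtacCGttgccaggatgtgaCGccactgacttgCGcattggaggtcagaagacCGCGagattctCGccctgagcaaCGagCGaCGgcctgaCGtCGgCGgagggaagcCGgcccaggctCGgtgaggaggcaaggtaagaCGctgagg
MAGEA2, chrX:152753835-152754134, minus strand: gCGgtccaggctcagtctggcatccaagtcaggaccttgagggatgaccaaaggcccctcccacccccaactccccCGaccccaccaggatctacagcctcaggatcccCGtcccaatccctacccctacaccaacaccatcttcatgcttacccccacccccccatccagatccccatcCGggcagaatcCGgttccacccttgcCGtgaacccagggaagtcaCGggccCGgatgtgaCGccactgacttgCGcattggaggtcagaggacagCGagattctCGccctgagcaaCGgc
DDX4, chr5:55766635-55766934, plus strand: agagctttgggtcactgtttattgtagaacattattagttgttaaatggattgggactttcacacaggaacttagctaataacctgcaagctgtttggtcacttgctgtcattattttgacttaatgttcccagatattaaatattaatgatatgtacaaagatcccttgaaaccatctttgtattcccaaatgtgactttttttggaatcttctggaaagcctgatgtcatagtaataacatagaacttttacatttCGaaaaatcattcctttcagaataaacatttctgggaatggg

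The BRDT window held 21 CpG, the MAGEA3 and MAGEA6 windows 19 each and the MAGEA2 window 13, against a median of 14 over the 35116 promoters in the table. Of all promoters, 39.5% held at least as many as BRDT. Members that were not higher held few or many, with 13 for PRAME, 41 for SYCP2 and 33 for DAZL. XAGE1B, slightly higher, held 17. The DDX4 window held 1 CpG, and 96.0% of all promoters held at least as many. Only 1 annotated start was used per gene. The DDX4 window may therefore not be its main promoter, and other starts were not examined. Over the 102 matched members the median was 13. Both strands were searched for 3 short motifs. CACGTG, the E-box bound by MYC, MAX and MGA, was in 7.26% of all promoters and in 25 of 102 members, of which 12 were the 12 matched GAGE genes, whose promoters are near-copies of each other, and 13 were among the other 90. Among these 13, 4 were PAGE genes. BRDT held 1 such E-box. GCGGGAA, the E2F6 site, was in 6.55% of all promoters and in 14 of the members. Those 14 included SSX1, SSX5 and the copy pairs SSX2 and SSX2B, SSX4 and SSX4B, and MAGED4 and MAGED4B, so they are not independent. CCGGAA, the ETS core, was in 17.3% of all promoters and in 11 of the members. A match describes these letters only.

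Levels are the deposited values taken back from log2 and are given as normalised reads. A level of 1 stands for 138 reads in the resistant library and 143 reads in the parental library. Ratios set the resistant line over the parental line. The log2 ratio was computed on level + 1, a gene was called expressed where its level was at least 1 in at least 1 library, and a 2-fold difference means a log2 ratio of at least 1 in size. Most members were silent or near silent in both lines. No read was counted for 30 of the 134, 72 had under 10 reads in both libraries, and 98 did not reach a level of 1. Only 36 members were expressed. A level per cell cannot be told apart from the share of cells that use the gene, because each library is a bulk culture.

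**Figure D1:**
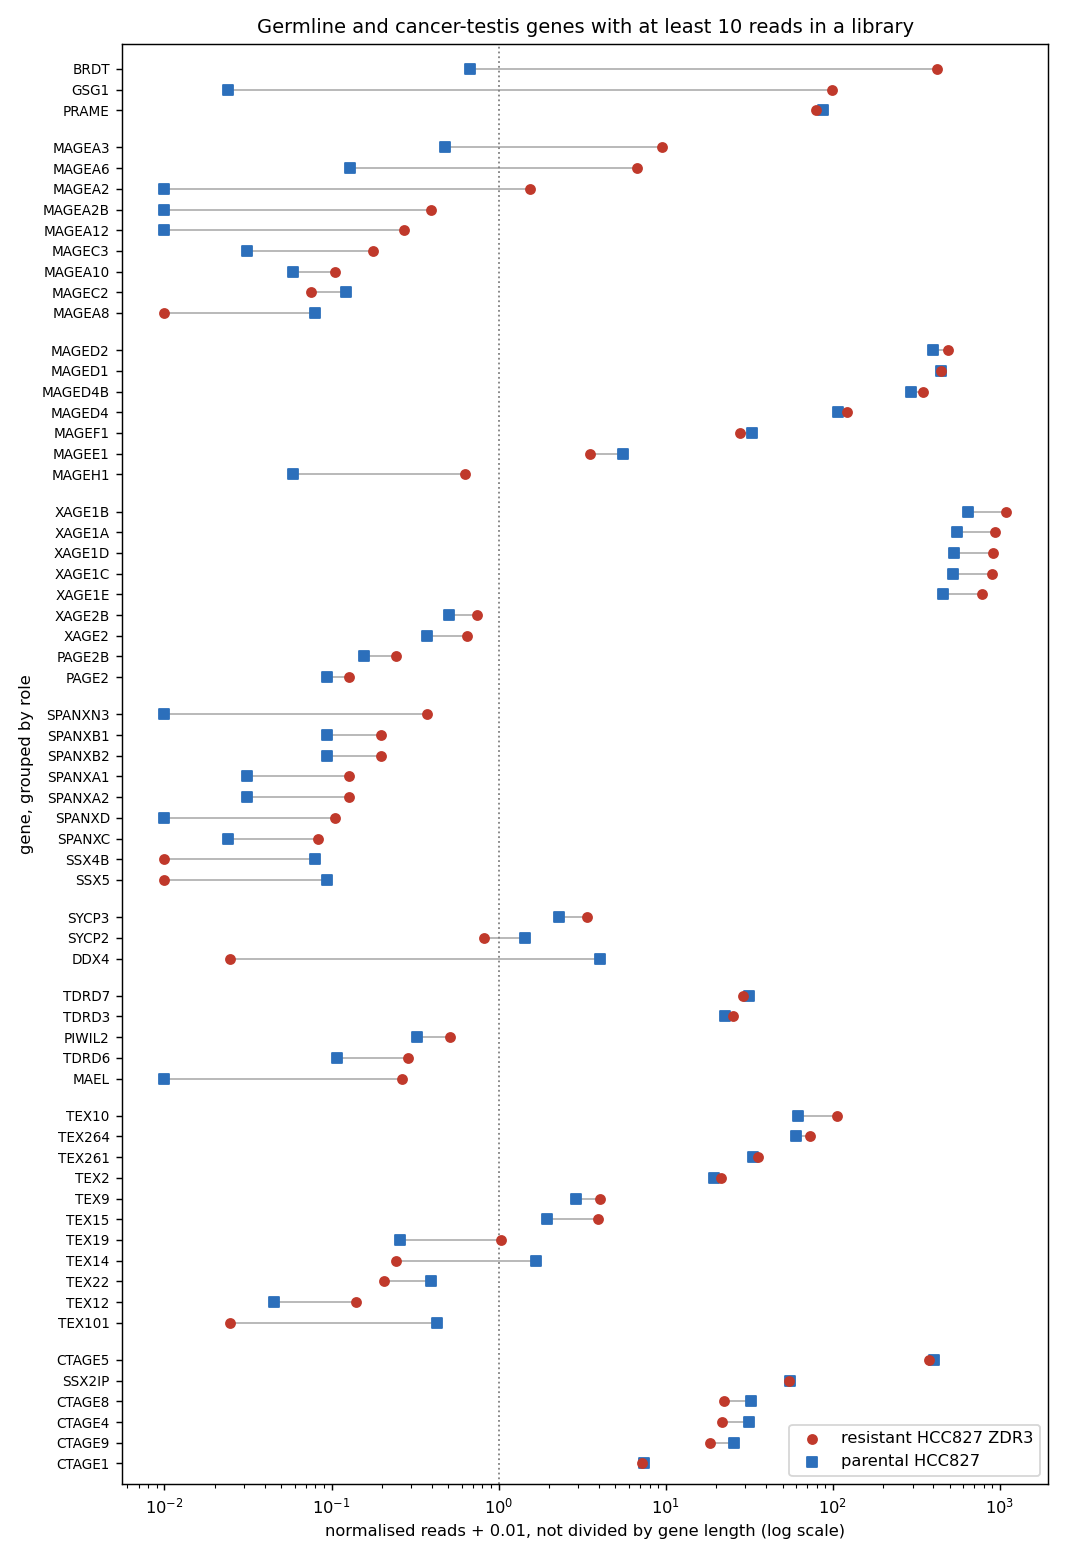
Level of the 62 members with at least 10 reads in a library, in normalised reads + 0.01 on a log axis, in the resistant and the parental line, grouped by role. Most members with reads sat below a level of 1 (dotted line), XAGE1, PRAME and the MAGED genes were high in both lines, and BRDT, GSG1 and DDX4 were far apart between the lines.

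Of the 36 expressed members, 5 were at least 2-fold higher in the resistant line (13.9%), against 10.6% of all 13777 expressed genes. These were BRDT, GSG1, MAGEA3, MAGEA6 and MAGEA2. At least 2-fold lower were DDX4 and TEX14, 2 of 36 (5.56%), against 9.68% of all expressed genes. Each of these 5 higher and 2 lower members was below a level of 1 in the line where it was lower. They thus counted as expressed only through the line where they were higher. The remaining 29 lay within 2-fold. Both shares were near those of all genes, so the members did not move as a block. Their median log2 ratio was 0.21, against -0.03 for all expressed genes, and 22 were above 0 and 14 below. The range ran from -2.31 for DDX4 to 7.98 for BRDT. By chromosome, 13 of 92 members on the X were expressed, with 3 higher, 0 lower and a median of 0.75. Of all 459 expressed genes on the X, 85 were at least 2-fold higher and 38 lower, with a median of -0.18. On the autosomes 23 of 38 were expressed, with 2 higher, 2 lower and a median of -0.01. The X median rests on 5 XAGE1 rows and on MAGE copies that share sequence.

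**Figure D2:**
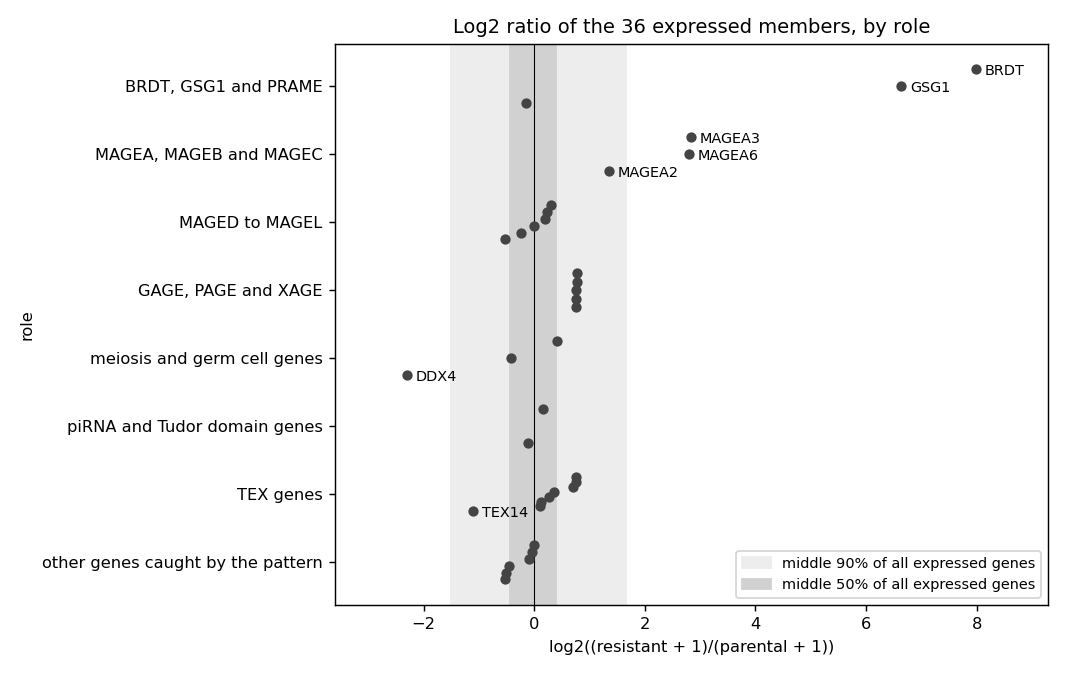
Log2 ratio (resistant over parental, on level + 1) of the 36 expressed members by role, 1 point per gene, with grey bands for the middle 50% and 90% of all 13777 expressed genes. BRDT, at 7.98, and GSG1, at 6.63, stand far to the high side and DDX4, at -2.31, on the low side, and most of the other members lie inside the bands.

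BRDT, the testis-specific bromodomain protein of the BET family, had a level of 420 in the resistant library (57832 reads), against 0.665 in the parental library (95 reads). The ratio was 632 with a 95% counting interval of 517 to 781. Per kilobase of exon the level was 97.0 in the resistant line, at percentile 95.5 of expressed genes, and 0.153 in the parental line, at percentile 4.16. So a gene that was near silent in the parental line ranked among the higher genes of the resistant line. Its relatives BRD2 and BRD3, which are used in most cells, were at 88.2 and 9.40 per kilobase in the resistant line, against 104 and 11.1 in the parental line. Their log2 ratios were both -0.24. In the resistant line BRDT thus stood close to BRD2 per kilobase.

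The genes around BRDT on chromosome 1 were also higher. Among the 40 nearest expressed genes, 20 on each side, 34 had a log2 ratio above 0. Past 2-fold were 19 on the higher side and 2 on the lower side, around a median of 0.83. The neighbour before BRDT, TGFBR3, had a level of 8.48 in the resistant line and 0.112 in the parental line, and the neighbour after it, EPHX4, had 8.55 and 5.82. With the neighbours' median taken off, the log2 ratio of BRDT was 7.15. HFM1, a meiotic helicase gene 3 expressed genes away, was at 10.6 in the resistant line, against 4.14 in the parental line (log2 ratio 1.18). DNA copy number was not measured, and its part in these values was not tested.

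GSG1, a germ cell-associated gene whose product in mouse binds a testis poly(A) polymerase, had a level of 99.4 in the resistant library (13675 reads), against 0.0140 in the parental library (2 reads). The ratio was 7099, with a counting interval of 1965 to 58623 that is wide because of the 2 parental reads. Per kilobase it stood at 33.1 in the resistant line, at percentile 84.7 of expressed genes, against 0.00466 in the parental line. Here the neighbours did not share the difference. The 40 nearest expressed genes on chromosome 12 had a median log2 ratio of -0.27, and past 2-fold were 4 on the higher side and 8 on the lower side. The nearest on either side were KIAA1467, at 24.8 in the resistant line and 18.7 in the parental line, and EMP1, at 5.14 and 42.7.

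**Figure D3:**
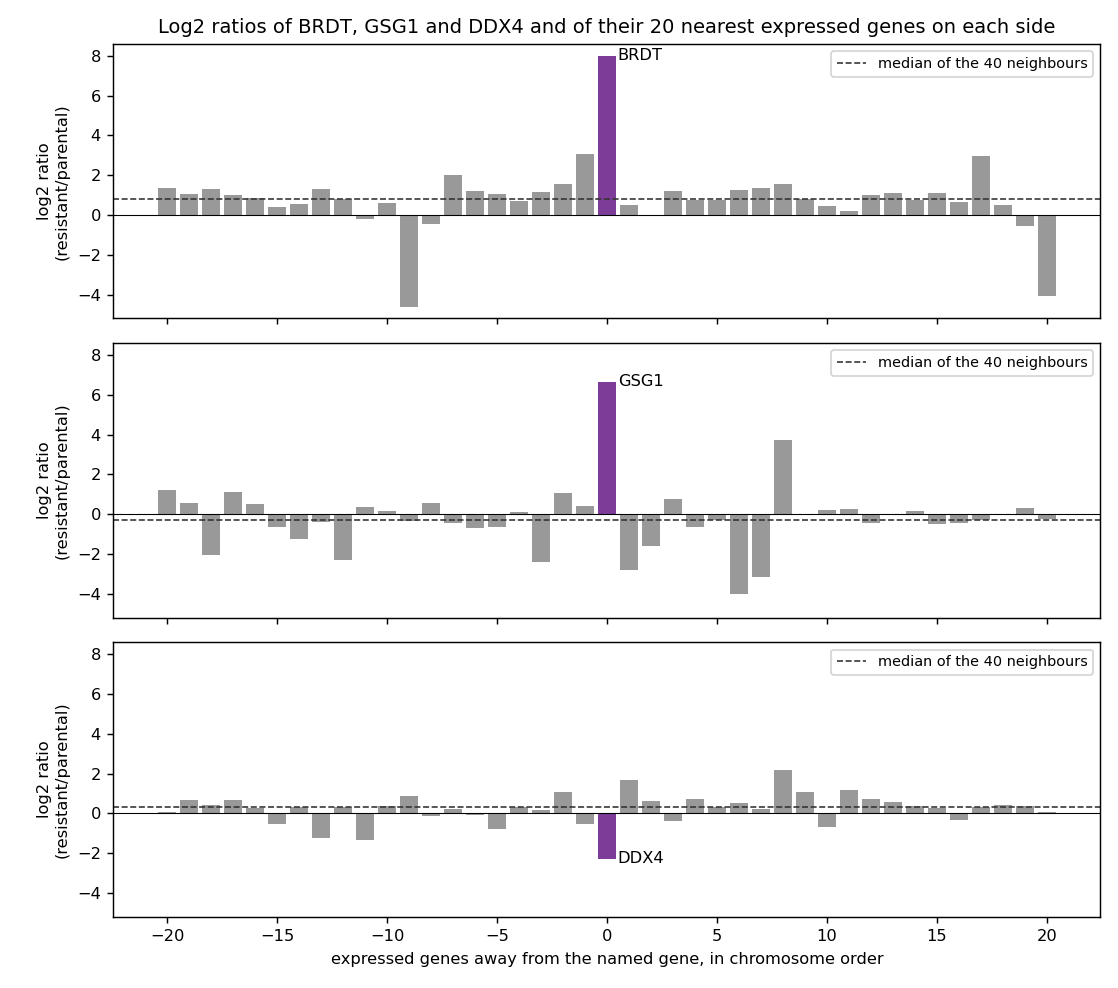
Log2 ratio of BRDT, GSG1 and DDX4 and of the 20 expressed genes on each side of each, in gene order along the chromosome, with a dashed line at the neighbours' median. The median stands at 0.83 around BRDT, -0.27 around GSG1 and 0.32 around DDX4, and each of the 3 genes stands apart from its own neighbours.

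PRAME, a cancer-testis antigen that serves as substrate receptor of a cullin ubiquitin ligase, was high in both lines. Its level was 78.8 in the resistant library (10841 reads) and 87.0 in the parental library (12435 reads). The ratio of 0.905 (counting interval 0.882 to 0.929) lies well within 2-fold. The same parental cells in which BRDT and GSG1 were near silent thus held PRAME at a level close to that of the resistant cells.

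The MAGEA, MAGEB and MAGEC genes are the type I MAGE genes, which lie on the X chromosome and are mostly limited to testis and tumours. Of these 25 rows, 9 had no reads, 9 had at least 10 reads and 3 were expressed. These 3, MAGEA3, MAGEA6 and MAGEA2, reached a level of 1 in the resistant line alone, so they counted as expressed through that line only. Their reads are the better measure. MAGEA3 was at 9.48 in the resistant library (1304 reads) and 0.469 in the parental library (67 reads), a ratio of 20.2 (15.8 to 26.2). MAGEA6 was at 6.74 (927 reads) in the resistant library and 0.119 (17 reads) in the parental library, a ratio of 56.6 (35.2 to 97.6). MAGEA2 was at 1.54 (212 reads) in the resistant library and had no reads in the parental library, which makes it at least 73.4-fold higher when the parental library is set at a floor of 3 reads. All 3 were therefore low in level, with counting intervals or floors far above 2. Their log2 ratios on level + 1 were 2.83, 2.79 and 1.35.

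These genes are not independent. Of the 50-base stretches of MAGEA3 transcripts, 54.9% also occur in MAGEA6, and 52.0% of those of MAGEA6 occur in MAGEA3. For MAGEA2, 96.4% occur in MAGEA2B. How shared reads were assigned is not given in the sources used here, so the split of reads within each pair is uncertain. MAGEA2B had 53 reads in the resistant library and 0 in the parental library, at least 18.3-fold higher. MAGEA12, which shares 13.8% of its stretches with other genes, had 36 and 0 reads, at least 12.5-fold higher. Both stayed below a level of 1.

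The rest of the type I genes stayed at or near 0. MAGEA8 went the other way, with 0 reads in the resistant library and 10 in the parental library, at least 3.21-fold lower. MAGEA10 had 13 and 7 reads, MAGEA1 had 1 and 0, MAGEA9 and MAGEA9B each had 0 and 4, and MAGEA4 and MAGEA11 had none in either line. The 10 MAGEB rows summed to 12 reads in the resistant library and 7 in the parental library, and 7 of them had none. MAGEC3, named here after its values were seen, had 23 reads in the resistant library and 3 in the parental library, a ratio of 7.96 (2.40 to 41.4), while MAGEC2 had 9 and 16 and MAGEC1 had 6 and 0.

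The MAGEA genes lie near the end of the long arm of the X chromosome among genes of other kinds. From MAGEA11 to CTAG2 the table held 84 genes in gene order, and 66 of them were not members. Of these 66, 48 were expressed, of which 6 passed 2-fold on the higher side and 3 on the lower, around a median log2 ratio of -0.38. Over all expressed genes the shares were 10.6% and 9.68%. The 40 expressed genes nearest to MAGEA3, other MAGEA genes among them, had a median of -0.34. CSAG1, a cancer-testis gene between the MAGEA genes, had no reads in either line. The genes of the stretch that are not members were mostly near or below equal levels, but not all. The 6 higher ones were RENBP (log2 ratio 2.77), DUSP9 (1.93), CD99L2 (1.79), MAMLD1 (1.57), PNMA6C (1.42) and PNCK (1.13). MAGEA3, at 2.83, and MAGEA6, at 2.79, thus stood beside RENBP. Among these 6 only PNCK was below MAGEA2, at 1.35. MAGEA2B and MAGEA12, below a level of 1, had log2 ratios of 0.47 and 0.34.

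**Figure D4:**
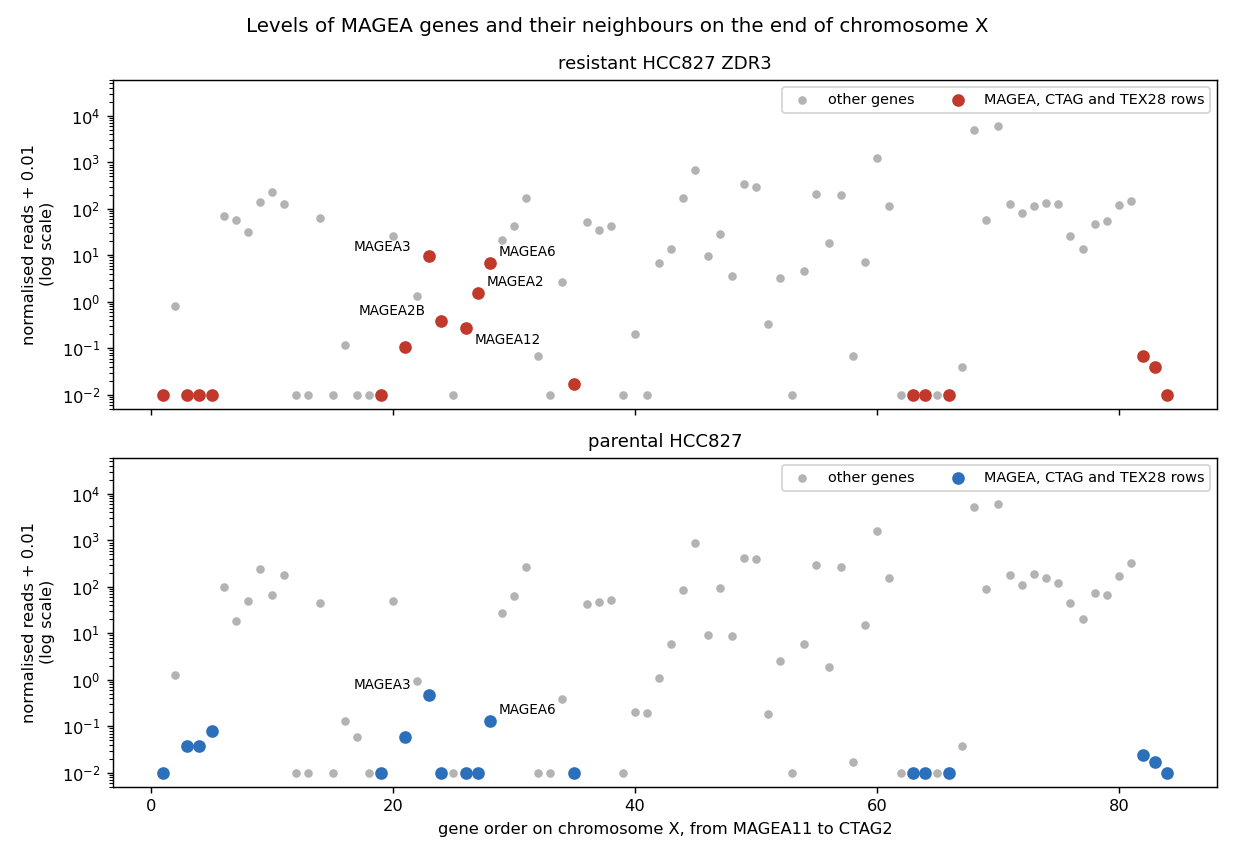
Level of each of the 84 genes from MAGEA11 to CTAG2 in gene order on the X chromosome, in normalised reads on a log axis, with the resistant line above and the parental line below. MAGEA3, at 9.48 and 0.469, MAGEA6, at 6.74 and 0.119, and MAGEA2, at 1.54 and 0, differ between the panels, while MAGEA4, MAGEA11 and CTAG2 have no reads in either.

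The MAGED to MAGEL genes, the type II MAGE genes, are used in many normal tissues. Of 9 rows, 6 were expressed, none past 2-fold, with a median log2 ratio of 0.09. MAGED1, an adaptor of neurotrophin receptor signalling, was at 443 in the resistant line and 445 in the parental line. MAGED2, known for its role in salt reabsorption in the kidney, was at 486 and 396, and MAGED4B at 345 and 295. MAGED4 was at 122 and 107, and 99.0% of its stretches occur in other genes, MAGED4B among them. MAGEF1 was at 27.7 in the resistant line and 32.8 in the parental line, and MAGEE1 at 3.52 and 5.52. MAGEH1, named after its values were seen, had 85 reads in the resistant library and 7 in the parental library, a ratio of 12.6 (5.86 to 32.3). MAGEE2 and MAGEL2 had no reads.

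Among the GAGE, PAGE and XAGE genes, a group of X-linked cancer-testis families, only XAGE1 was expressed. XAGE1 is a cancer-testis antigen best known from lung adenocarcinoma. Its 5 rows, XAGE1A to XAGE1E, were at 781 to 1092 in the resistant line and 456 to 647 in the parental line. Their log2 ratios were 0.75 to 0.78 and their plain ratios 1.68 to 1.71, so each was higher but within 2-fold. All stretches of XAGE1A (100%) occur in XAGE1B, so these rows may count the same reads. Per kilobase XAGE1A stood at 874 in the resistant line and 520 in the parental line, at percentiles 99.7 and 99.4 of expressed genes. XAGE1 was therefore among the most abundant transcripts of both lines.

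The relatives of XAGE1 were near silent. XAGE2 had 87 reads in the resistant library and 52 in the parental library, XAGE2B had 101 and 71, PAGE2B had 32 and 21 and PAGE2 had 16 and 12. The 18 GAGE rows each had at least 1 read in 1 of the libraries but none reached 10. They summed to 51 reads in the resistant library and 15 in the parental library, with at most 4 and 1 in a single row, and their near-identical sequences mean that the rows do not count separate genes.

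SSX, CTAG and SPANX genes gave no expressed member among 24 rows. The SSX proteins are transcriptional repressors known from gene fusions in synovial sarcoma, and the SPANX proteins are found in sperm nuclei. SPANXN3 had 50 reads in the resistant library and 0 in the parental library, at least 17.3-fold higher, and SPANXD had 13 and 0, at least 4.50-fold higher. SPANXA1 and SPANXA2 carried the same counts, 16 and 3, as did SPANXB1 and SPANXB2, with 26 and 12, and SPANXC had 10 and 2. The SSX genes with 10 or more reads ran the other way. SSX5 had 0 reads in the resistant library and 12 in the parental library, at least 3.85-fold lower, and SSX4B had 0 and 10, at least 3.21-fold lower. All 50-base stretches of SSX4B (100%) occur in SSX4, which had 0 and 5 reads. Of those of SPANXD, 71.6% occur in other genes. The split of reads between such copies is uncertain. CTAG1A and CTAG1B, the NY-ESO-1 genes, had 8 and 4 reads in the resistant library, against 2 and 1 in the parental library, and CTAG2 had none.

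The meiosis and germ cell members were few and moved in both directions. DDX4, the VASA RNA helicase that marks germ cells, had 2 reads in the resistant library, a level of 0.0145, against 576 reads in the parental library, a level of 4.03. The parental level was 277 times that of the resistant line, with a counting interval of 76.4 to 2296. The 40 expressed genes around DDX4 on chromosome 5 had a median log2 ratio of 0.32, with 5 at least 2-fold higher and 2 lower, so the neighbourhood did not go the same way as DDX4. SYCP2, a lateral element protein of the synaptonemal complex, was at 0.807 (111 reads) in the resistant line and 1.43 (204 reads) in the parental line, a ratio of 0.565 (0.444 to 0.715). SYCP3, its partner in the lateral element, was at 3.37 (464 reads) in the resistant line and 2.27 (325 reads) in the parental line, a ratio of 1.48 (1.28 to 1.71). The 2 partners thus lay on opposite sides of 1, both within 2-fold. SYCP1, which joins the lateral elements, and DAZL, an RNA-binding protein of germ cells, had no reads in either line.

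The piRNA and Tudor domain members were mostly silent, and of 11 rows 2 were expressed. TDRD3, a partner of a topoisomerase that is used in many cells, was at 25.3 in the resistant line and 22.6 in the parental line. TDRD7, a germ granule protein that is also used in the lens, was at 28.9 and 31.6. MAEL, a piRNA pathway protein, had 35 reads in the resistant library and 0 in the parental library, at least 12.1-fold higher but below a level of 1. PIWIL2, a PIWI protein, was at 0.501 (69 reads) in the resistant line and 0.315 (45 reads) in the parental line, a ratio of 1.59 (1.08 to 2.37). PIWIL1, the other PIWI protein of the members, had 7 reads in each library. TDRD6 had 38 reads in the resistant library and 14 in the parental library, a ratio of 2.82 (1.49 to 5.63), and TDRD12 had 8 and 0. TDRD1, TDRD5, TDRD9 and TDRD10 had no reads. Of the 11 rows, 6 stayed under 10 reads in both lines.

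The TEX genes were named for testis expression, but several are used in most cells. Of 15 rows 8 were expressed, 1 of them at least 2-fold lower, and the median log2 ratio was 0.32. TEX10, part of a complex for ribosome assembly, was at 106 in the resistant line and 62.1 in the parental line, a ratio of 1.71. TEX264, a receptor for autophagy of the endoplasmic reticulum, was at 72.7 and 60.0, and TEX261 at 35.6 and 33.2. The germline TEX genes were lower in level and went in both directions. TEX14, which is needed in mouse for the bridges between germ cells, was at 0.233 (32 reads) in the resistant line and 1.67 (238 reads) in the parental line, a ratio of 0.140 (0.0933 to 0.202). The 40 expressed genes around TEX14 had a median log2 ratio of -0.11.

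A further 4 germline TEX genes are named after their values were seen. TEX15, needed in mouse for meiosis and transposon silencing, was at 3.95 in the resistant line and 1.93 in the parental line, within 2-fold on the log2(level + 1) scale. TEX19, a germline and placenta gene known from mouse, was at 1.02 (141 reads) in the resistant line and 0.245 (35 reads) in the parental line, a ratio of 4.18 (2.87 to 6.24), although its log2 ratio on level + 1 was 0.70. TEX101, a surface protein of germ cells, had 2 reads in the resistant library and 60 in the parental library. TEX12, of the central element of the synaptonemal complex, had 18 and 5. TEX11, TEX13A, TEX13B and TEX28 had no reads.

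The log2(level + 1) scale hides differences in genes with few reads, so the members were also described by reads. At least 10 reads in a library were counted for 62 members, and for 13 of these (21.0%) the counting interval of the ratio lay wholly above 2, against 12.1% of the 16385 genes with as many reads. For 6 (9.68%) it lay wholly below 1/2, against 11.2%. With copies that share most of their sequence counted once, the shares were 10 of 48 (20.8%) and 6 of 48 (12.5%). The 13 were BRDT, GSG1, MAEL, TEX19, MAGEH1, MAGEC3, SPANXD, SPANXN3, MAGEA2, MAGEA2B, MAGEA3, MAGEA6 and MAGEA12. All of them but BRDT, TEX19, MAGEA3 and MAGEA6 had under 10 reads in the parental library. They thus passed the minimum of 10 reads only through the resistant library, where they were higher. The 6 were DDX4, TEX14, TEX101, SSX5, SSX4B and MAGEA8, and all but TEX14 passed that minimum only through the parental library. These shares therefore describe the counts and are no test of the group. Among the members without reads in the parental library, 6 of 47 (12.8%) had at least 10 reads in the resistant library, against 6.76% of all genes without parental reads. In the reverse direction it was 3 of 39 (7.69%), against 7.36%. Of the members below a level of 1 in the parental line, 6 of 104 (5.77%) reached 1 in the resistant line, against 8.46% of all genes. In reverse, 3 of 101 (2.97%) did, against 7.51%. On the higher side the members' share stood above that of all genes by the rule on counting intervals and below it by the rule on a level of 1, so the reading of the whole group depended on the rule.

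The 6 genes that the pattern caught by their letters were all expressed and all within 2-fold. CTAGE5, a cargo receptor gene of the endoplasmic reticulum, was at 377 in the resistant line and 404 in the parental line, and SSX2IP, a centrosome gene, at 55.0 and 55.4. CTAGE4 was at 21.7 and 31.6, CTAGE8 at 22.3 and 32.2, CTAGE9 at 18.3 and 25.4 and CTAGE1 at 7.16 and 7.40. CTAGE4 shares 94.8% of its stretches with CTAGE8. Without these 6 the median log2 ratio of the members was 0.33.

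Germline genes outside the members were read against the same shares of all expressed genes, 10.6% at least 2-fold higher and 9.68% lower. Of 30 further meiosis genes, 29 were in the table and 15 expressed, with 3 at least 2-fold higher and 1 lower and a median log2 ratio of -0.01. C17orf104, also called MEIOC, which keeps germ cells in meiosis, was at 15.2 in the resistant line and 2.30 in the parental line. C9orf84, also called SHOC1, a crossover gene, was at 103 and 32.7. HFM1, described above, was the third. The lower one was RAD21L1, a meiotic cohesin subunit, at 1.34 and 7.38. PRDM9, which sets the places of meiotic recombination and is named after its values were seen, had 0 reads in the resistant library and 92 in the parental library, at least 29.5-fold lower.

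Of 20 further piRNA pathway genes, 19 were in the table and 12 expressed, with 2 higher and 2 lower and a median of -0.10. PIWIL4, a PIWI protein, was at 2.52 in the resistant line and 0.273 in the parental line, and PLD6, a mitochondrial enzyme of piRNA production, at 19.6 and 6.96. STK31, a Tudor domain kinase, was at 3.28 and 17.3, and TDRKH, a Tudor protein of mitochondria, at 62.4 and 150. The list thus had as many genes past 2-fold on either side.

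Of 40 other cancer-testis antigens, 37 were in the table and 17 expressed, with 1 higher and 4 lower and a median of -0.65. IL13RA2, a decoy receptor for interleukin 13, was at 6.30 (867 reads) in the resistant line and 0.0560 (8 reads) in the parental line, a log2 ratio of 2.79. The 4 lower ones were ATAD2, OIP5, CEP55 and TTK, which are genes of dividing cells. They were at 31.5, 3.36, 26.5 and 40.3 in the resistant line and at 91.9, 10.4, 64.3 and 92.9 in the parental line. CTCFL, the germline paralogue of CTCF, named after its values were seen, had 0 reads in the resistant library and 106 in the parental library, at least 34.0-fold lower. The list's median was thus below that of all expressed genes, and 1 library per line allows no test of it.

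**Figure D5:**
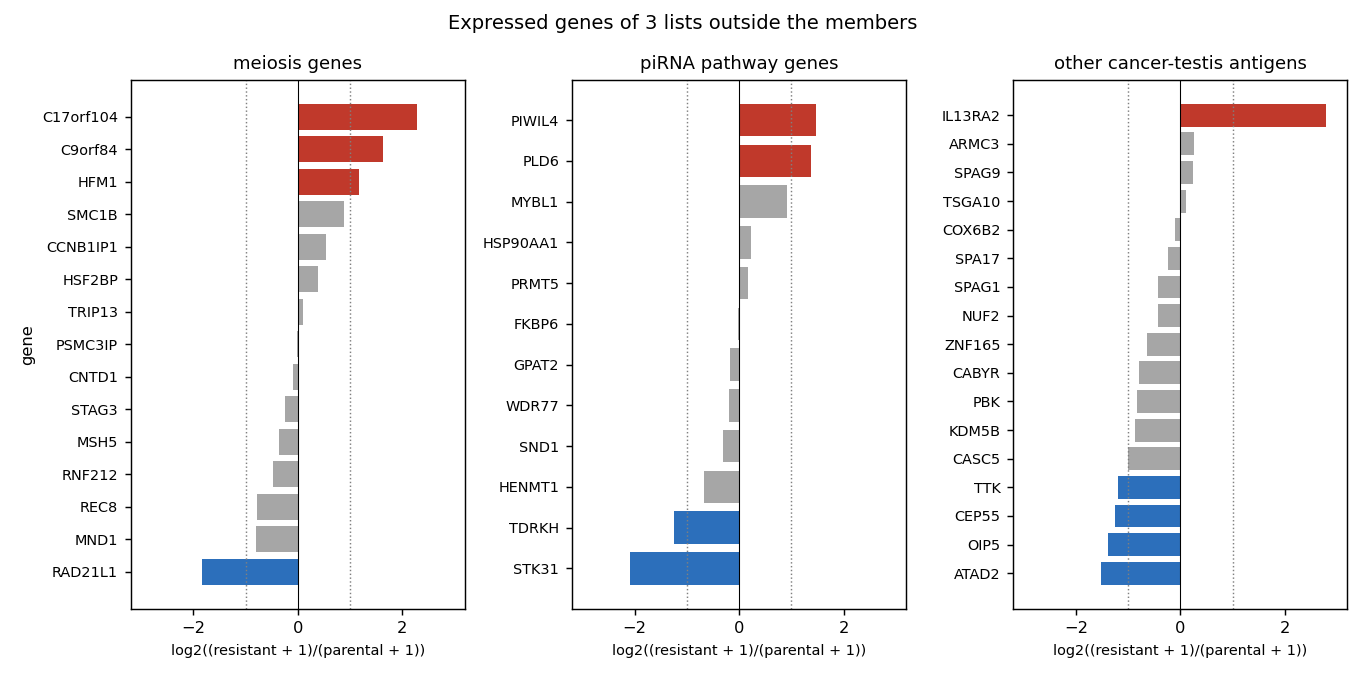
Log2 ratio (resistant over parental, on level + 1) of the expressed genes of 3 further lists, meiosis genes, piRNA pathway genes and other cancer-testis antigens, with red for at least 2-fold higher and blue for at least 2-fold lower. Each list has genes on both sides, with 3 higher and 1 lower among 15 meiosis genes, 2 and 2 among 12 piRNA genes and 1 and 4 among 17 cancer-testis antigens.

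Genes that act in the silencing of germline genes or in adding and removing DNA methylation were mostly close between the lines. Of 26 such genes, the demethylating enzymes TET1, TET2 and TET3 among them, 24 were expressed, with a median log2 ratio of -0.14. None was at least 2-fold higher and 1 was lower, against 10.6% and 9.68% of all expressed genes. The lower one was ATF7IP, a partner of the SETDB1 histone methyltransferase, at 97.3 in the resistant line and 292 in the parental line. It lies 2 expressed genes away from GSG1. MAX, the partner of MYC and MGA, was at 162 and 94.6, the methyltransferase gene DNMT3A at 48.9 and 83.0 and TET2, which oxidises methylated cytosine, at 23.1 and 39.5. DNMT1, the maintenance methyltransferase, was at 791 in the resistant line and 805 in the parental line.

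The ubiquitin ligase partners of MAGE proteins were likewise close, with 1 exception. Of 15 genes 14 were in the table and all 14 were expressed, with a median of -0.03. None was at least 2-fold higher and 1 was lower, against 10.6% and 9.68% of all expressed genes. The exception was TRIM31, at 25.4 in the resistant line and 216 in the parental line, a log2 ratio of -3.04. TRIM28, which binds the MAGEA3 and MAGEA6 proteins, was at 534 and 535.

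Markers of other cell types were read beside these results. Of 9 lung adenocarcinoma epithelial markers 8 were expressed, 7 of them at least 2-fold lower, against 9.68% of all expressed genes. The summed level of the 9 was 10817 in the resistant line and 18274 in the parental line. EGFR was at 7182 and 6662, EPCAM at 62.4 and 527 and NKX2-1 at 9.33 and 95.0. The summed level of 6 leukocyte markers was 2.16 in the resistant line and 2.38 in the parental line with CD3E at 0, that of 6 fibroblast markers 1.90 and 9.53, nearly all of it COL1A1, with COL3A1 at 0, and that of 3 endothelial markers 0.0945 and 0.462. Past a level of 1 in a library were 2 leukocyte, 1 fibroblast and 0 endothelial markers. Within the near-equal leukocyte sum, PTPRC had 32 reads in the resistant library and 0 in the parental library, at least 11.1-fold higher, and CD79A had 141 and 41, a ratio of 3.57 (2.51 to 5.19), while CSF1R had 105 and 261. The part of these and of the lower epithelial markers in the results above was not tested.

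Of 8 Sertoli and Leydig cell markers of the testis 2 were expressed, with a sum of 3.997 in the resistant line and 3.08 in the parental line and FSHR, LHCGR and HSD3B2 at 0. AMH alone was past 2-fold, at 2.82 and 0.875. None of 8 late spermatid markers was expressed, and PRM1, PRM2, TNP1, ODF1, AKAP4 and SPACA3 had no reads. ACRV1, an acrosome gene, had 92 reads in the resistant library and 44 in the parental library, a ratio of 2.17, and TNP2 had 0 and 1. Markers of pluripotent and primordial germ cells summed to 5.62 in the resistant line and 24.0 in the parental line. Of the 9, 4 were expressed and 3 of these were at least 2-fold lower, against 9.68% of all expressed genes. TFAP2C was at 0.930 and 12.1, PRDM1 at 0.0872 and 3.74, and KIT had 0 reads in the resistant library and 323 in the parental library, at least 104-fold lower. POU5F1 was at 4.45 and 5.77 and SOX17 had no reads. So BRDT and GSG1 were high in the resistant line while the protamine genes PRM1 and PRM2 were at 0. DDX4 was lower, as were 3 of the 9 markers of pluripotent and primordial germ cells. Of the other markers on that list, POU5F1 lay within 2-fold and 5 were not expressed. A link between DDX4 and these markers was not tested.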

How the data were processed

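Polyadenylated RNA of 1 parental and 1 gefitinib-resistant culture was read on a HiSeq sequencer, per the labels' protocols. The submitters' processing notes name TopHat. Which version, build, counter and strand setting were used is not given in the sources used here, and reads of antisense or copied genes may be shared.

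The authors deposited 1 log2 value per gene and library. The table is named for RPKM, but taken back from log2 the values were reads times 1 factor per library and were not divided by length. Every gene with 1 to 100000 reads came out whole within 0.1 read (17049 genes in the resistant and 17090 in the parental library, 100%). The lowest deposited value, 0.9 reads, was taken as no reads, for 3573 genes in the resistant and 3504 in the parental library.

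From these reads the log2 ratio of level + 1, the plain ratio and its exact (Clopper-Pearson) 95% interval were computed. These intervals, and the floor of 3 reads behind each "at least" fold, cover counting error only; reads are not independent molecules. Exon length and gene order came from GENCODE release 29 and promoters from RefSeq; shared sequence was counted as 50-base stretches of GENCODE transcripts. Python 3.11.15, numpy 2.4.6, pandas 2.3.3, scipy 1.17.1 and matplotlib 3.10.9 were used. The calls were tested on data simulated with counting error alone, so that test does not cover differences between cultures.

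The members and lists were chosen with earlier results of these data known. Members were named where expressed and past 2-fold, where listed singly, where among the 3 highest of a family, or where at least 10 reads stood against none; other lists gave up to 4 expressed genes with the largest log2 ratio. Genes given for context, markers among them, were added after their values were seen. Pseudocounts, minimum levels, rescaling and the neighbours' median were tried as alternatives.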

Additional observations from a re-analysis of the deposited data

How the results depend on the processing

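Across the alternatives the count of members at least 2-fold higher was 4 to 6, against 5 as reported, except for 13 by the rule on counting intervals. The number of members compared changed with the minimum level, and their share moved from above that of all genes to below it. With a minimum level of 5 it was 4 of 28, against 9.94% of all genes. With a minimum of 0.1 it was 5 of 56, against 9.13%, and with no minimum 5 of 134, against 6.97%. The count at least 2-fold lower stayed at 2 except for 0 with a pseudocount of 5, 0 with a minimum level of 5 and 6 by the rule on counting intervals. The median log2 ratio, 0.21 as reported, was 0.19 with a pseudocount of 5, 0.24 with all expressed genes centred on 0, 0.27 with the neighbours' median subtracted, 0.19 with a minimum level of 0.1, 0.18 with a minimum level of 5 and 0.0106 with no minimum. It was 0.14 with copies counted once and 0.33 without the CTAGE genes and SSX2IP. The cause of these shifts was not tested. These last 2 settings and the rule on counting intervals were chosen after seeing the data. None of the 7 members past 2-fold changed direction with another pseudocount, with all genes centred on 0 or with the neighbours' median subtracted. Smaller log2 ratios did: with the neighbours' median subtracted MAGEA8, SSX4B, SSX5 and MAGED1 turned positive (0.24, 0.05, 0.03 and 0.05, against -0.10, -0.10, -0.12 and -0.0073 as reported) and PIWIL1 turned negative (-0.03, against 0.0026), and MAGED1 was at 0.03 with all genes centred on 0. No paired analysis was possible because each group holds 1 library, and for the same reason no library could be left out. Below a level of 1, values rest on under 143 reads, and differences between the lines cannot be told apart from differences between single cultures.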
